A study of Mus musculus with 10 samples.

Results

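The genes described here are 10 transcription factors and cofactors of the B lineage: Ebf1, Pax5, Foxo1, Spib, Irf4, Bcl11a, Lef1, Pou2af1, Ikzf3 and Ikzf1. They were taken by gene symbol from the 23152 genes that had at least 1 probe set annotated to a single symbol, and all 10 were measured, on 5 to 21 probe sets each. Lymphoid progenitors were sorted from the bone marrow of adult C57BL/6 mice, with no treatment or altered allele named, and their total RNA was run on 10 Affymetrix arrays. All groups were negative for mature lineage markers and high for the cytokine receptor Flt3. Lymphoid-primed multipotent progenitors (LMPPs), high for cKit and Sca-1, were split into cells without CD127, the interleukin-7 receptor (labelled LMPP-s, 3 arrays), and cells with it (LMPP+s, 3 arrays). Common lymphoid progenitors (CLPs), low for cKit and Sca-1 and positive for CD127, were split into cells without the surface protein Ly6D (Ly6D-CLPs, 2 arrays) and with it (Ly6D+CLPs, 2 arrays). The gates define the groups by surface protein, so a group can hold cells of mixed state.

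In mouse bone marrow, early lymphoid progenitors pass through a network of regulators before they become B cells. Ikaros (Ikzf1), E proteins and Foxo1 open and maintain the lymphoid programme, Ebf1 specifies the B lineage together with Foxo1, and Pax5, a target of Ebf1, fixes that choice and holds other fates off. Ly6D on CLPs is known as a mark of cells biased to the B lineage, while Ly6D- CLPs keep T, NK and dendritic potential.

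The sequences around the start sites of 4 members are shown because these genes had the largest differences between Ly6D+ and Ly6D- CLPs: Ebf1, Pou2af1, Pax5 and Spib. Each is the RefSeq window of 300 bases (GRCm38.p6), in the direction of the gene. Windows were found for 9 of the 10 members, 14 in all. Capitals mark every match to 8 motifs searched on both strands: the EBF half-site pair CCCNNGGG, the E-boxes CAGCTG and CAGGTG, the forkhead motif GTAAACA, the octamer ATGCAAAT, the Ikaros core TGGGAA, the Ets core GGAAGT and the TCF and LEF core CTTTGA.
Ebf1, first start (chr11:44617850-44618149, plus strand): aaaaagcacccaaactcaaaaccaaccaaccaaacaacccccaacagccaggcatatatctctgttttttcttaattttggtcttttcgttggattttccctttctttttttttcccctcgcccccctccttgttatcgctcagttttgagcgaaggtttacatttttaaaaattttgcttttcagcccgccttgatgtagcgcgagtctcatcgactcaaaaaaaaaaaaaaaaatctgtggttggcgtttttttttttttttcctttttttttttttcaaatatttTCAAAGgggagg
Ebf1, second start (chr11:44619978-44620277, plus strand): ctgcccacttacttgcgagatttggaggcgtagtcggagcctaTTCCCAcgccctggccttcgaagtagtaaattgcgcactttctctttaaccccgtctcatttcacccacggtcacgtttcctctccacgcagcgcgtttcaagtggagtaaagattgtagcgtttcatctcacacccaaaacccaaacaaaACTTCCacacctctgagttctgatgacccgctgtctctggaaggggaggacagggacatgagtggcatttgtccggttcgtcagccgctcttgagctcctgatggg
Pax5 (chr4:44710645-44710944, minus strand): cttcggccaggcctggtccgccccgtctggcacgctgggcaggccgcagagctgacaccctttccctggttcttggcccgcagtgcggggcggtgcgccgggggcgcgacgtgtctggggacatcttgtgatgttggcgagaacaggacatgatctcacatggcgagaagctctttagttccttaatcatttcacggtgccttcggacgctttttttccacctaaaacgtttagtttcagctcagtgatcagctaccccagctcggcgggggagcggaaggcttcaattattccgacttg
Spib (chr7:44532022-44532321, minus strand): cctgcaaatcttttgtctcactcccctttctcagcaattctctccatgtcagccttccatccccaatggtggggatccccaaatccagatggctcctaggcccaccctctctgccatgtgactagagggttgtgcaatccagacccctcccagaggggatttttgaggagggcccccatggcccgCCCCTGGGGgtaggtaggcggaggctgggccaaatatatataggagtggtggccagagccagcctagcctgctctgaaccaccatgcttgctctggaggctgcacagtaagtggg
Pou2af1 (chr9:51213440-51213739, plus strand): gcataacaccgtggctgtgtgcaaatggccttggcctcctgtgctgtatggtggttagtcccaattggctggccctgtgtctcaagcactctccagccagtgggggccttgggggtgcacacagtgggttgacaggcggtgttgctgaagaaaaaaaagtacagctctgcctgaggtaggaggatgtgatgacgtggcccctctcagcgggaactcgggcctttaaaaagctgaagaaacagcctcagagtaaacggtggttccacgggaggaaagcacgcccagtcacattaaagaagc
The window at the first Ebf1 start held the TCF and LEF core on the opposite strand, with its first base at position 39 counted from the start site. The window at the second start held the Ikaros core at position -207 and the Ets core at position -56, both on the opposite strand. The Spib window held 2 overlapping matches to the EBF half-site pair, at positions -65 and -64. No motif of the 8 was found in the windows of Pax5 and Pou2af1. Among all 32851 windows of the same table, the EBF half-site pair was in 13.7%, CAGCTG in 16.3%, CAGGTG in 20.2%, the forkhead motif in 3.65%, the octamer in 1.74%, the Ikaros core in 25.6%, the Ets core in 23.8% and the TCF and LEF core in 16.0%. Of the member windows not shown, those of Foxo1 and 1 of the 2 Ikzf1 windows also held the EBF half-site pair. These matches describe letters in the windows and were not tested for binding.

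The surface markers used for sorting were read first. Il7r, which encodes CD127, averaged 4.32 in CD127- LMPPs and 9.10, 9.31 and 9.64 in CD127+ LMPPs, Ly6D- CLPs and Ly6D+ CLPs. Ly6d averaged 11.33 in Ly6D+ CLPs and 5.88 in Ly6D- CLPs. Ly6d also averaged 8.67 in CD127+ LMPPs, a group that was not sorted on Ly6D, against 4.76 in CD127- LMPPs. Kit was lower in both CLP groups (7.62 and 7.05) than in both LMPP groups (8.70 and 8.33), while Ly6a, which encodes Sca-1 and had 2 probe sets, passed the test in none of the 6 comparisons. All values are log2 signals, averaged over the probe sets of a gene. A gene value under 4.45, the 95th percentile of 1428 sensory receptor genes, was treated as low signal, and 47.5% of genes had an average under it. Arrays of the same group correlated at 0.972 to 0.986 over genes, and Ly6D- CLP array 1 was closer to the Ly6D+ CLP arrays (0.979 and 0.977) than to Ly6D- CLP array 2 (0.972). The sources do not say whether arrays of a group came from separate mice or sorts, so p-values measure the spread between these samples, which may be technical. LMPP and CLP arrays also carry separate runs of sample numbers, and whether they were processed together is not stated. A difference between LMPPs and CLPs therefore cannot be told apart from a batch difference of this kind.

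The members differed in the comparisons in which they passed. Ebf1 was higher in CD127+ than in CD127- LMPPs, and Ebf1, Spib and Irf4 were higher in both CLP groups than in CD127- LMPPs. Pax5, Pou2af1 and Lef1 passed only in Ly6D+ CLPs against each LMPP group, where Ebf1, Spib and Irf4 were higher too. Pax5, Pou2af1 and Lef1 did not pass between the CLP groups. Across the 4 groups, 7 of the 10 members varied by limma's moderated F test (Benjamini-Hochberg adjusted over all genes, threshold 0.05), against 9.38% of all genes: Ebf1 (adjusted p = 1.29e-06), Spib (0.000245), Irf4 (0.00122), Pou2af1 (0.00663), Pax5 (0.0160), Lef1 (0.0258) and Foxo1 (0.0401). Ikzf1 (0.0513), Bcl11a (0.283) and Ikzf3 (0.509) did not pass. In bulk RNA, a group with more cells that express a gene and a group with more RNA per cell cannot be told apart.

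**Figure D1:**
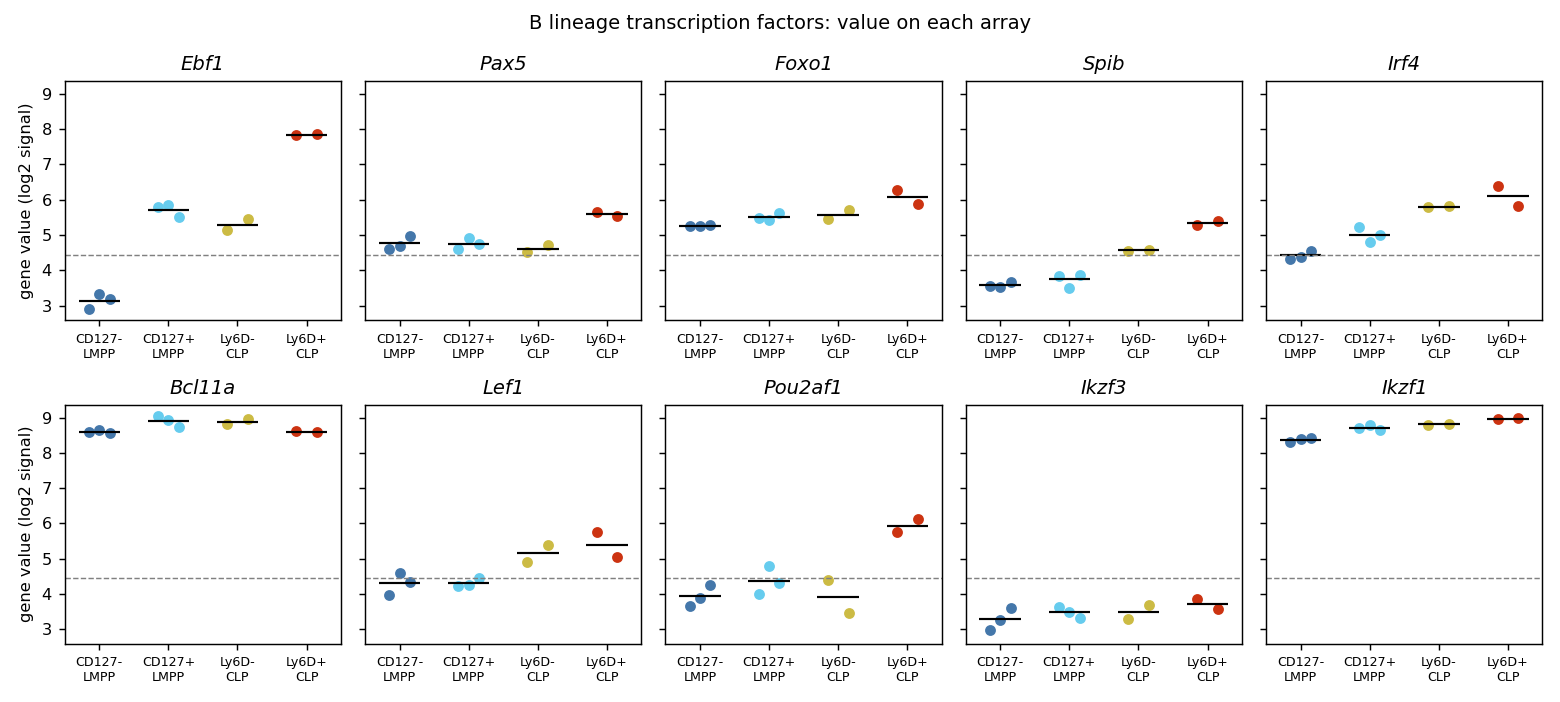
Each panel plots the log2 gene value of 1 member on every array by sorted group; points are arrays, black bars are group means and the dashed line is the low-signal limit of 4.45. The mean of Ebf1 is 3.14 in CD127- LMPPs and 7.85 in Ly6D+ CLPs, while Bcl11a and Ikzf1 stay within 8.31 to 9.06 on all arrays.

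Ebf1, early B cell factor 1, separated the groups most widely among the members. It read 2.90, 3.33 and 3.20 in CD127- LMPPs, under the low-signal limit on all 3 arrays. It read 5.80, 5.84 and 5.50 in CD127+ LMPPs and 5.13 and 5.46 in Ly6D- CLPs. It read 7.83 and 7.86 in Ly6D+ CLPs. The CLP pair differing in Ly6D, and the LMPP pair differing in CD127, did not overlap in Ebf1. Ly6D- CLPs lay just below CD127+ LMPPs, again with no overlap.

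Between CD127+ and CD127- LMPPs, Ebf1 was 2.57 log2 units higher (SE 0.16, adjusted p = 2.66e-05). Because CD127- LMPPs were under the limit, the fold is a bound, taken by setting the dim group's mean to the limit: at least 2.41-fold higher. Ebf1 was the 1 of 10 members called in this comparison, where 1.47% of all genes were called and 0.881% were called higher. Between Ly6D+ and Ly6D- CLPs it was 2.55 log2 units higher (SE 0.20, adjusted p = 0.000292), or 5.85-fold. It was again the 1 member called, here among 23 genes in all, 0.0993% of those tested and 0.0389% called higher. The call was lost when the 4 CLP arrays were fitted alone (adjusted p = 0.0888, same difference).

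Ly6D+ CLPs also exceeded CD127+ LMPPs in Ebf1 by 2.13 log2 units (adjusted p = 0.000275), or 4.38-fold, and CD127- LMPPs by 4.70 (adjusted p = 1.67e-07), at least 10.6-fold. Ly6D- CLPs exceeded CD127- LMPPs by 2.16 (adjusted p = 0.000187), at least 1.81-fold. The difference between Ly6D- CLPs and CD127+ LMPPs was -0.42 (95% interval -0.82 to -0.02, adjusted p = 0.259), which did not pass. In that pair 17 of the 21 Ebf1 probe sets were lower in Ly6D- CLPs, while in each of the other 5 comparisons all 21 were higher in the first-named group. Vpreb2, a surrogate light chain gene, also read lower in Ly6D- CLPs than in CD127+ LMPPs, a call lost without any 1 of 6 arrays. Ly6d read lower as well, but Ly6D- CLPs were gated as lacking Ly6D, and CD127+ LMPPs were not sorted on it. The part of Vpreb2 and Ly6d in the Ebf1 value was not tested.

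Pax5, paired box 5, is the factor that commits cells to the B lineage. It read 4.61, 4.68 and 4.99 in CD127- LMPPs, 4.59, 4.92 and 4.73 in CD127+ LMPPs, and 4.51 and 4.71 in Ly6D- CLPs. It read 5.66 and 5.54 in Ly6D+ CLPs. The first 3 groups overlapped one another, and both Ly6D+ CLP arrays stood above all 8 other arrays. Pax5 was higher in Ly6D+ CLPs than in CD127+ LMPPs by 0.85 log2 units (SE 0.17, adjusted p = 0.0192), or 1.80-fold, and than in CD127- LMPPs by 0.84 (SE 0.17, adjusted p = 0.00947), or 1.79-fold. Against Ly6D- CLPs the difference was 0.99 (SE 0.18, 95% interval 0.58 to 1.39) and did not pass (adjusted p = 0.102).

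The single probe sets of Pax5 did not move together. The brightest one read 8.02 and 8.57 in Ly6D+ CLPs, 8.67, 8.71 and 8.96 in CD127+ LMPPs, 7.79 and 7.47 in Ly6D- CLPs, and 7.91, 7.99 and 8.71 in CD127- LMPPs. It was thus lower in Ly6D+ CLPs than in CD127+ LMPPs by its group means (-0.48, adjusted p = 0.420), the reverse of the gene's value. Of the 15 probe sets, 14 were higher in Ly6D+ than in Ly6D- CLPs and 12 were higher than in CD127+ LMPPs. The Pax5 call against CD127+ LMPPs was lost without CD127+ LMPP array 1 or 3 (adjusted p = 0.0686 and 0.0580) and without Ly6D+ CLP array 1 or 2 (0.153 and 0.101). It was also lost with the mean of probe sets above the limit (0.0883). The call against CD127- LMPPs was lost without Ly6D+ CLP array 1 (0.0866) or 2 (0.0517), with the probe sets above the limit (0.0639) and with the brightest probe set, where the difference was 0.09 (adjusted p = 0.895).

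Pou2af1 encodes OBF-1, the B cell coactivator that works with octamer-binding proteins. It read 5.76 and 6.12 in Ly6D+ CLPs. It read 4.40 and 3.45 in Ly6D- CLPs, 3.99, 4.80 and 4.32 in CD127+ LMPPs, and 3.65, 3.89 and 4.25 in CD127- LMPPs. Both Ly6D+ CLP arrays exceeded all others, and the other 3 groups overlapped with means under the limit. Pou2af1 was higher in Ly6D+ CLPs than in CD127- LMPPs by 2.01 log2 units (SE 0.31, adjusted p = 0.00221) and than in CD127+ LMPPs by 1.57 (SE 0.31, adjusted p = 0.0180), at least 2.81-fold in both. Against Ly6D- CLPs the difference was also 2.01 (SE 0.34, 95% interval 1.27 to 2.75), and it missed the threshold (adjusted p = 0.0618), though it passed without Ly6D- CLP array 1 (0.0288).

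All 5 Pou2af1 probe sets were higher in Ly6D+ than in Ly6D- CLPs, but by unequal amounts. One read 8.29 and 8.02 in Ly6D+ CLPs against 3.88 and 2.39 in Ly6D- CLPs, a difference of 5.02, and the smallest difference among the 5 was 0.39. Without CD127+ LMPP array 1 or 3, the call between Ly6D+ CLPs and CD127+ LMPPs was lost (adjusted p = 0.0622 and 0.0616), as it was without Ly6D+ CLP array 1 or 2 (0.0763 and 0.151). It was also lost with the median of probe sets, where the difference was 0.94 (adjusted p = 0.140), and with the brightest (1.29, adjusted p = 0.0787). The call against CD127- LMPPs was lost with the brightest probe set (1.13, adjusted p = 0.0895). Cd79a, which encodes a chain of the B cell receptor and had group means under the limit in the other 3 groups, read 6.00 and 5.56 in Ly6D+ CLPs.

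Markers of mature B and plasma cells were set beside Pax5 and Pou2af1. Of 9 measured, 0 passed between Ly6D+ CLPs and either Ly6D- CLPs or CD127+ LMPPs, where 0.0993% and 4.03% of all genes were called. Under the limit in Ly6D+ CLPs were 4 of the 9. Against CD127- LMPPs, 1 of the 9, the heavy chain gene Ighm, was called higher in Ly6D+ CLPs (0.66, adjusted p = 0.0175), beside 3.93% of all genes. Ighm was also called higher than in CD127- LMPPs in CD127+ LMPPs (0.79, adjusted p = 0.0147) and Ly6D- CLPs (0.58, adjusted p = 0.0441), beside 0.881% and 2.93%. The first of these calls was lost without CD127- LMPP array 1 or Ly6D+ CLP array 1 (adjusted p of up to 0.169), the second without CD127- LMPP array 1 or 3 or CD127+ LMPP array 2 or 3 (up to 0.0783), and the third without any 1 of the 10 arrays (up to 0.142). Ms4a1, which encodes CD20, averaged 3.34 in Ly6D+ CLPs and 3.35 in Ly6D- CLPs, and Cr2 averaged 3.48 and 3.55, all under the limit. Cd22 averaged 4.61 in Ly6D+ CLPs, over the limit, and 4.24, 3.87 and 4.10 in Ly6D- CLPs, CD127+ LMPPs and CD127- LMPPs. Its Ly6D+ CLP arrays stood above every other array. Cd37 averaged 7.66 in Ly6D+ CLPs, 7.29 in Ly6D- CLPs and 7.67 in CD127+ LMPPs. Between the CLP groups Cd22 and Cd37 were higher without overlap, as were 18.4% of all genes, and neither passed. The mean of the list ranged from 5.18 to 5.31 over the Ly6D+ CLP arrays and from 5.12 to 5.16 over the Ly6D- CLP arrays, 5.03 to 5.13 over the CD127+ LMPP arrays and 4.79 to 4.90 over the CD127- LMPP arrays. The part of such cells in the Pax5 and Pou2af1 values was not tested.

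**Figure D2:**
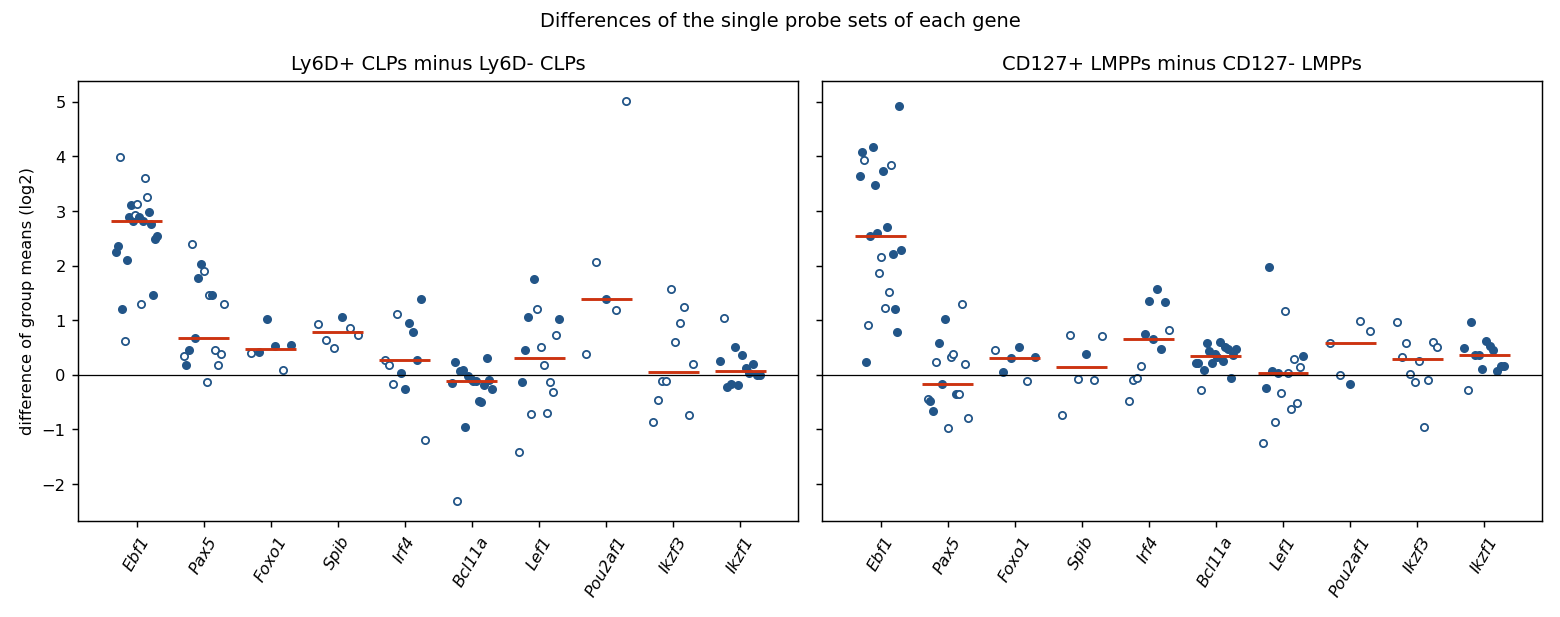
Each point is 1 probe set, plotted as the difference of group means in log2 units, by member; filled points had a mean over all arrays above the probe set limit of 5.08, open points did not, and red bars are medians. All 21 Ebf1 probe sets lie above 0 in both panels, and 1 dim Pou2af1 probe set differs by 5.02 between the CLP groups.

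Spib encodes an Ets-family factor of B cells and plasmacytoid dendritic cells. It read 3.55, 3.54 and 3.68 in CD127- LMPPs and 3.85, 3.51 and 3.87 in CD127+ LMPPs. It read 4.54 and 4.59 in Ly6D- CLPs and 5.29 and 5.41 in Ly6D+ CLPs. The LMPP groups overlapped under the limit, Ly6D- CLPs stood just over it, and Ly6D+ CLPs stood above every other array. Spib was higher in Ly6D+ CLPs than in CD127+ LMPPs by 1.61 log2 units (SE 0.15, adjusted p = 0.000610) and than in CD127- LMPPs by 1.76 (SE 0.15, adjusted p = 8.07e-05), at least 1.87-fold in both.

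Ly6D- CLPs exceeded CD127- LMPPs in Spib by 0.98 (adjusted p = 0.00477) and CD127+ LMPPs by 0.82 (SE 0.15, adjusted p = 0.0280), at least 1.09-fold in both. Spib was the 1 member of 10 called between Ly6D- CLPs and CD127+ LMPPs, where 2.06% of all genes were called and 0.635% were called higher. That call was lost when any 1 of the 5 compared arrays was left out: without CD127+ LMPP array 1, 2 or 3 the adjusted p was 0.0639, 0.0853 and 0.0651, and without Ly6D- CLP array 1 or 2 it was 0.0805 and 0.117. The difference between the CLP groups was 0.79 (95% interval 0.41 to 1.16, adjusted p = 0.165). All 6 probe sets of Spib were higher in Ly6D+ than in Ly6D- CLPs, and 1 of the 6 was above the probe set limit. With that probe set alone, the 4 Spib calls had adjusted p-values of 0.0918 to 0.521, and with the median of probe sets both calls of Ly6D- CLPs were lost (0.119 against CD127- LMPPs and 0.211 against CD127+ LMPPs).

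Irf4, interferon regulatory factor 4, acts with Ets-family partners at light chain and other lymphoid genes. It read 4.32, 4.39 and 4.56 in CD127- LMPPs and between 4.80 and 5.24 on the 3 CD127+ LMPP arrays. It read 5.79 and 5.83 in Ly6D- CLPs and 6.40 and 5.83 in Ly6D+ CLPs. No pair of groups overlapped, although the lower Ly6D+ CLP array and the higher Ly6D- CLP array were equal to 2 decimals. Irf4 was higher than in CD127- LMPPs by 1.39 log2 units in Ly6D- CLPs (SE 0.20, adjusted p = 0.00249, at least 2.57-fold) and by 1.69 in Ly6D+ CLPs (SE 0.20, adjusted p = 0.000429, at least 3.18-fold).

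Ly6D+ CLPs exceeded CD127+ LMPPs in Irf4 by 1.10 (SE 0.20, adjusted p = 0.0122), or 2.15-fold, a call lost without Ly6D+ CLP array 1 (adjusted p = 0.125) and with the median of probe sets (0.0666). Between Ly6D- CLPs and CD127+ LMPPs the difference was 0.80 (adjusted p = 0.0650), and between the LMPP groups it was 0.59 (adjusted p = 0.179). Between the CLP groups it was 0.31 (95% interval -0.17 to 0.78, adjusted p = 0.718). The brightest Irf4 probe set, however, read 9.43 and 9.49 in Ly6D+ CLPs against 8.11 and 8.02 in Ly6D- CLPs, while 3 of the 11 probe sets were lower in Ly6D+ CLPs.

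Spib and Irf4 are also expressed in plasmacytoid dendritic cells, whose markers were read in the same arrays. Siglech, a defining lectin of those cells, read 7.63 and 7.80 in Ly6D- CLPs and 8.91 and 8.93 in Ly6D+ CLPs, against 5.37 to 5.74 in CD127- LMPPs. It was higher in Ly6D+ CLPs than in CD127+ LMPPs by 2.43 log2 units (adjusted p = 0.000133). Between those groups, 1 of the 10 markers was called higher and 1, Ly6c2, lower, beside 1.28% of all genes called higher and 4.03% called in either direction. Between Ly6D- CLPs and CD127- LMPPs 3 were called higher and 2, Ly6c2 and Bst2, lower, beside 2.93% and 7.10%. In CD127+ against CD127- LMPPs, where Spib and Irf4 were not called, 4 were called higher and 0 lower, beside 0.881% and 1.47%. Of those 4, Siglech and Irf7 lost the call with the median of probe sets (adjusted p = 0.395 and 0.272). Ly6c2 averaged 9.30 in CD127- LMPPs, 7.40 in Ly6D- CLPs and 7.32 in Ly6D+ CLPs, and Bst2 averaged 9.11, 8.31 and 8.55. The mean of the 10 markers ranged from 6.09 to 6.20 in CD127- LMPPs, 6.54 to 6.67 in CD127+ LMPPs, 6.48 to 6.67 in Ly6D- CLPs and 6.69 to 6.72 in Ly6D+ CLPs. Klk1 was under the limit in all 4 groups. The part of such cells in the Spib and Irf4 values was not tested.

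Foxo1, a forkhead factor that drives Il7r and Rag genes in B cell progenitors, showed smaller differences in its gene value, the mean of 6 unequal probe sets. It read 5.25, 5.25 and 5.27 in CD127- LMPPs, 5.49, 5.43 and 5.61 in CD127+ LMPPs, and 5.44 and 5.71 in Ly6D- CLPs. It read 6.28 and 5.87 in Ly6D+ CLPs. CD127- LMPPs were lowest and Ly6D+ CLPs highest with no overlap, and the middle groups overlapped. Foxo1 was higher in Ly6D+ CLPs than in CD127- LMPPs by 0.82 log2 units (SE 0.16, adjusted p = 0.00895), or 1.76-fold, and without Ly6D+ CLP array 1 the call was lost (adjusted p = 0.109). It was also lost with the median of probe sets, where the difference was 0.50 (adjusted p = 0.271). Its difference from CD127+ LMPPs, 0.56, did not pass (adjusted p = 0.0825). That difference passed with the brightest probe set (1.66, adjusted p = 0.0160), probe sets above the limit (0.89, 0.0194) and genes above the limit (0.0271). Single Foxo1 probe sets differed between Ly6D+ CLPs and CD127- LMPPs by -0.10 to 1.98.

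Lef1 encodes an HMG-box factor of the Wnt pathway that is active in pro-B and T cell progenitors. It read 3.97, 4.60 and 4.33 in CD127- LMPPs and 4.22, 4.27 and 4.47 in CD127+ LMPPs. It read 4.91 and 5.39 in Ly6D- CLPs and 5.75 and 5.04 in Ly6D+ CLPs. The LMPP groups overlapped each other, the CLP groups overlapped each other, and every CLP array exceeded every LMPP array. Lef1 was higher in Ly6D+ CLPs than in CD127+ LMPPs by 1.08 (SE 0.25, adjusted p = 0.0371) and than in CD127- LMPPs by 1.10 (SE 0.25, adjusted p = 0.0168), at least 1.94-fold in both. In Ly6D- CLPs the same differences were 0.83 (adjusted p = 0.109) and 0.85 (adjusted p = 0.0663).

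Neither Lef1 call held without Ly6D+ CLP array 1 (adjusted p = 0.265 against CD127+ LMPPs and 0.172 against CD127- LMPPs). The first was also lost without CD127+ LMPP array 1, 2 or 3 (0.103, 0.0969 and 0.0721) or CD127- LMPP array 3 (0.0551), and the second without CD127- LMPP array 1 (0.0602). With the median of probe sets both were lost (0.0881 and 0.0694). All 14 Lef1 probe sets were higher in Ly6D+ CLPs than in CD127+ LMPPs. Among 7 T cell markers, 5 were under the limit in every group. Between Ly6D+ CLPs and CD127+ LMPPs 0 passed, beside 4.03% of all genes, and the list mean ranged from 4.59 to 4.70 and from 4.44 to 4.69. Against CD127- LMPPs, where the list mean ranged from 4.13 to 4.31, 2 of the 7 were called higher in Ly6D+ CLPs, beside 3.93% of all genes. These were Cd28 (1.58, adjusted p = 0.000133) and Cd5 (1.33, adjusted p = 0.00482). Both were also called higher there in Ly6D- CLPs, by 1.27 and 1.30 (adjusted p = 0.000989 and 0.00835), the Cd5 call being lost without Ly6D- CLP array 2 (0.0632). Cd3e averaged 4.15 in Ly6D+ CLPs and 4.18 in CD127+ LMPPs, both under the limit. Between the same groups Cd5 read 6.62 and 6.66 against 5.70 to 6.20, and Cd28 read 7.42 and 7.31 against 6.60 to 6.96. Neither passed, and 17.9% of all genes also stood higher there without overlap. The part of such cells in the Lef1 values was not tested.

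Ikzf1 encodes Ikaros, the zinc finger factor needed for lymphoid development. It read 8.31, 8.38 and 8.43 in CD127- LMPPs, 8.69, 8.78 and 8.66 in CD127+ LMPPs, 8.80 and 8.81 in Ly6D- CLPs, and 8.95 and 8.99 in Ly6D+ CLPs. The groups stood in that order with no overlap between any pair. Its difference between Ly6D+ CLPs and CD127- LMPPs was 0.59 log2 units (SE 0.13, adjusted p = 0.0155), or 1.51-fold, and no other Ikzf1 comparison passed. The call was lost without CD127- LMPP array 1 (0.0568) and without Ly6D+ CLP array 1 (0.0869) or 2 (0.107), and with the median (0.174) or the brightest probe set (0.0987).

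Bcl11a, a zinc finger factor that B cell development requires, was well above the limit in every group and passed in no comparison. It read 8.59, 8.65 and 8.57 in CD127- LMPPs, 9.06, 8.92 and 8.72 in CD127+ LMPPs, 8.81 and 8.96 in Ly6D- CLPs, and 8.62 and 8.58 in Ly6D+ CLPs. Both Ly6D+ CLP arrays lay below the arrays of CD127+ LMPPs and Ly6D- CLPs, so Bcl11a did not follow the order of Ebf1. The difference between the CLP groups was -0.29 (95% interval -0.64 to 0.07, adjusted p = 0.645). Ikzf3, which encodes Aiolos, an Ikaros relative of later B cells, read between 2.98 and 3.85 on the 10 arrays. All of these values, and the average of each of its 10 probe sets, were under their limits, so no fold was given.

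Counted by comparison, the members were called most often where Ly6D+ CLPs were set against LMPPs. Against CD127- LMPPs, 8 of the 10 were called, all higher, where 10.9% of all genes were called and 3.93% were called higher: all but Bcl11a and Ikzf3. Against CD127+ LMPPs, 6 of the 10 were called, all higher, beside 4.03% of all genes called and 1.28% called higher: Ebf1, Pax5, Spib, Irf4, Lef1 and Pou2af1. Between Ly6D- CLPs and CD127- LMPPs, 3 were called, all higher, beside 7.10% and 2.93%: Ebf1, Spib and Irf4. The median member difference was 0.97 in both comparisons of Ly6D+ CLPs with LMPPs, 0.40 between the CLP groups, 0.37 between Ly6D- CLPs and CD127- LMPPs, 0.28 between the LMPP groups and 0.03 between Ly6D- CLPs and CD127+ LMPPs. The median over all genes lay between -0.01 and 0.02 in the 6 comparisons. These comparisons share arrays, so their counts are not independent of one another. Counts between CLPs and LMPPs also hold any batch difference between the CLP and LMPP arrays, which cannot be told apart.

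Arrays that did not overlap were more common than calls. Between the CLP groups, 7 members were higher and 1, Bcl11a, was lower without overlap, while 18.4% and 19.2% of all genes did so. Between the LMPP groups, 5 members were higher and 0 lower, beside 8.46% and 9.27% of all genes. In Ly6D- CLPs against CD127+ LMPPs, 4 members were higher (Spib, Irf4, Lef1 and Ikzf1) and 1, Ebf1, was lower, beside 16.5% and 17.9%. In Ly6D+ CLPs against CD127+ LMPPs, 8 were higher and 1, Bcl11a, was lower, beside 17.9% and 20.0%. Against CD127- LMPPs, 7 were higher in Ly6D- CLPs, beside 17.3%, and 8 in Ly6D+ CLPs, beside 20.2%, with 0 members lower in either, beside 19.3% and 22.3%. Ebf1 and Bcl11a were thus the members that stood apart downwards in any comparison.

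**Figure D3:**
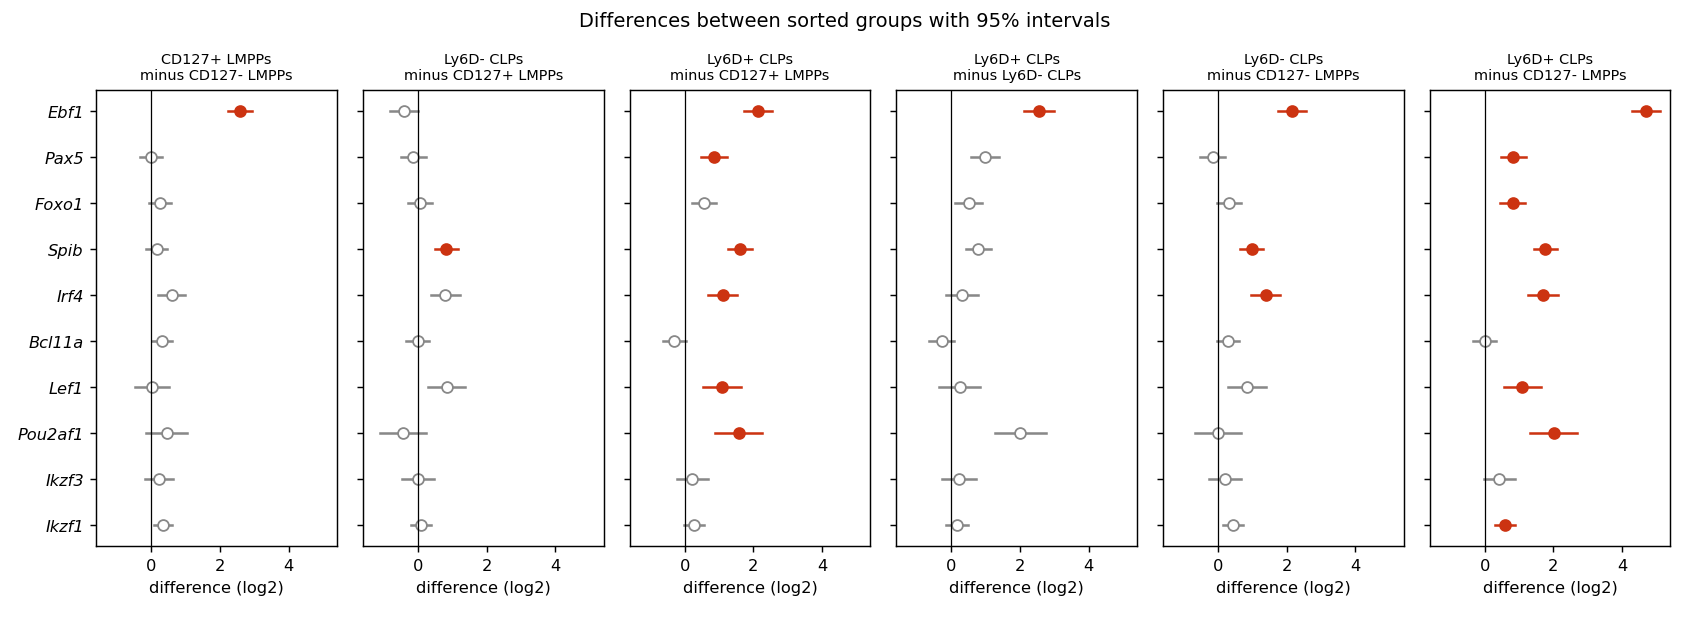
Each panel plots the log2 difference of the 10 members for 1 comparison with its 95% interval from the limma fit; filled red points passed an adjusted p of 0.05 and open grey points did not. Ebf1 passes in 5 of 6 panels, and the panel of Ly6D+ CLPs minus CD127- LMPPs holds 8 filled points.

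A list named for targets of EBF1 and PAX5 was read beside the factors. It also held Rag1, Rag2 and Dntt, so its counts are not counts of EBF1 and PAX5 targets alone. Control by either factor was not tested. Of 12 measured, 10 were called higher in Ly6D+ CLPs than in CD127- LMPPs, 6 in CD127+ than in CD127- LMPPs, 6 in Ly6D+ CLPs than in CD127+ LMPPs, 5 in Ly6D- CLPs than in CD127- LMPPs and 2 in Ly6D+ than in Ly6D- CLPs. The shares of all genes called higher were 3.93%, 0.881%, 1.28%, 2.93% and 0.0389%, in that order. The median differences of the list were 1.50, 0.62, 0.93, 0.26 and 0.95, in the same order. Rag1, Rag2 and Dntt were all among the genes called between the LMPP groups and in Ly6D- CLPs against CD127- LMPPs. Rag1, a recombinase gene, read 4.45, 4.35 and 4.60 in CD127- LMPPs, 7.69, 7.72 and 7.65 in CD127+ LMPPs, 7.13 and 7.09 in Ly6D- CLPs, and 9.90 and 9.51 in Ly6D+ CLPs. Like Ebf1, Rag1, which had 2 probe sets, was thus lower in Ly6D- CLPs than in CD127+ LMPPs without overlap. It was not called there, and 17.9% of all genes also stood lower without overlap. Rag1 was higher in Ly6D+ than in Ly6D- CLPs (2.60, SE 0.17, adjusted p = 0.000130). Vpreb2 was also higher in Ly6D+ than in Ly6D- CLPs, by 2.46 (SE 0.18, adjusted p = 0.000225), but by 0.33 with its brightest probe set (adjusted p = 0.753). With the 4 CLP arrays fitted alone, neither gene passed between the CLP groups (adjusted p = 0.0888 for both).

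Other genes of the list kept a different order. Blnk, a B cell adaptor, read 5.88 to 5.98 in CD127- LMPPs, 8.26 to 8.39 in CD127+ LMPPs, 8.87 and 8.98 in Ly6D- CLPs, and 9.66 and 10.02 in Ly6D+ CLPs. Dntt, which encodes terminal transferase, averaged 10.17 in CD127- LMPPs and 11.51, 11.51 and 11.58 in the other groups. Cd79a was higher in Ly6D+ CLPs than in CD127+ LMPPs by 1.96 (adjusted p = 0.00553), a call lost without Ly6D+ CLP array 1 (0.0703). In Ly6D- CLPs against CD127+ LMPPs, 0 genes of the list were called higher and 1, Vpreb2, lower (-0.80, adjusted p = 0.0350). That call was lost without any 1 of 6 arrays, with an adjusted p of up to 0.149: all arrays of the compared groups and CD127- LMPP array 1.

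**Figure D4:**
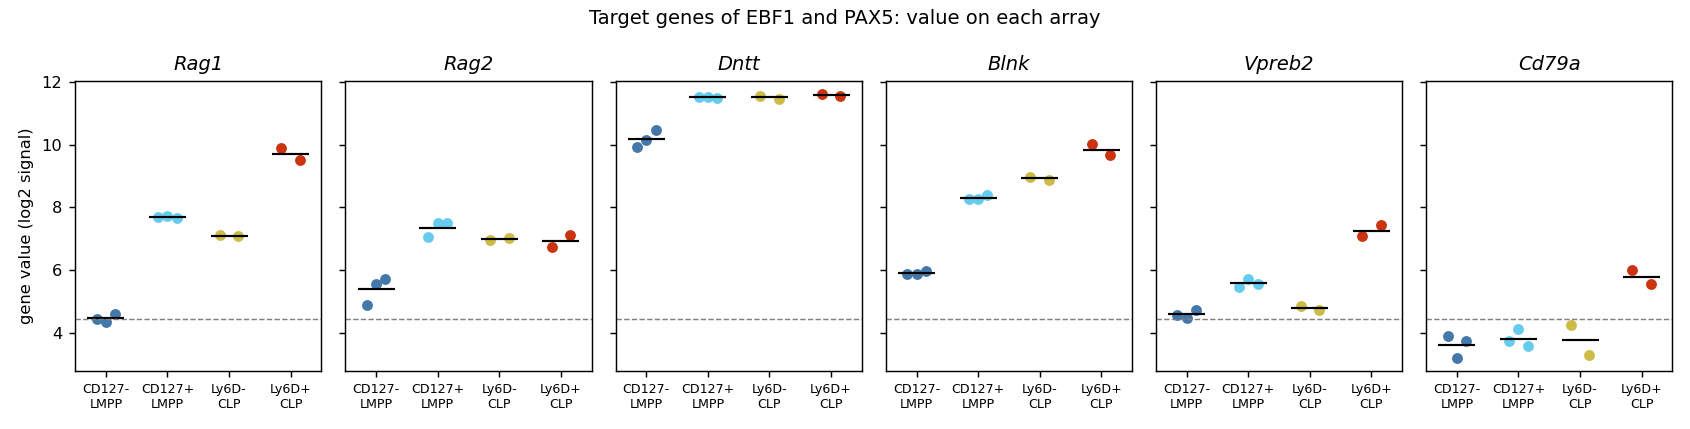
Each panel plots the log2 gene value of 1 gene of the list named for EBF1 and PAX5 targets, which also held Rag1, Rag2 and Dntt, on every array by sorted group. Points are arrays, black bars are group means and the dashed line is the low-signal limit of 4.45. Rag1 and Vpreb2 are lower in Ly6D- CLPs than in CD127+ LMPPs and highest in Ly6D+ CLPs, Blnk is highest in Ly6D+ CLPs, and Dntt reaches 11.51 in CD127+ LMPPs.

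Partner and upstream regulators were counted in the same way. Of 15 measured, 4 were called higher in Ly6D+ CLPs than in CD127- LMPPs, beside 3.93% of all genes. In Ly6D- CLPs against CD127- LMPPs 3 were called higher, beside 2.93%. In CD127+ against CD127- LMPPs 1 was called higher, beside 0.881%, and in Ly6D+ CLPs against CD127+ LMPPs 1, beside 1.28%. The number called lower was 0 in every comparison. Ets1, an Ets-family factor, was higher in CD127+ than in CD127- LMPPs by 1.26 (SE 0.17, adjusted p = 0.00427), a call lost with the brightest probe set (1.08, adjusted p = 0.188). Bach2, a repressor that restrains myeloid genes, was higher in Ly6D+ CLPs than in CD127- LMPPs by 0.92 (adjusted p = 0.00961), a call lost without 1 of the Ly6D+ CLP arrays, whichever it was (adjusted p of up to 0.0771), and with the median of probe sets (0.105).

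Relatives of the members did not share their pattern as a group. Of 17 measured, at most 2 were called higher and at most 2 lower in any of the 6 comparisons. Over all genes, between 0.0389% and 3.93% were called higher and between 0.0993% and 10.9% in either direction. Tcf7, a relative of Lef1 known from T cell progenitors, read 6.61 and 6.48 in Ly6D- CLPs, 5.50 and 5.10 in Ly6D+ CLPs and 4.91 to 5.12 in CD127- LMPPs. It was higher in Ly6D- CLPs than in CD127- LMPPs by 1.54 (SE 0.18, adjusted p = 0.00103), but by 0.15 with its brightest probe set (adjusted p = 0.836). Ikzf2, which encodes Helios, ran against Ikzf1: it read 6.78 to 7.05 in CD127- LMPPs and 5.78 and 5.42 in Ly6D+ CLPs, a difference of -1.30 (SE 0.19, adjusted p = 0.00162) whose call was lost with the median (0.0605) and the brightest probe set (0.0783).

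Regulators of other lineages were called mostly as lower, as were the called genes as a whole in the comparisons of CLPs with LMPPs. Of 13 measured, 3 were called lower and 0 higher in Ly6D+ CLPs than in CD127- LMPPs. Beside them, 10.9% of all genes were called in either direction and 3.93% were called higher. In Ly6D- CLPs against CD127- LMPPs, 3 were called lower and 1, Nfil3, higher, beside 7.10% and 2.93%. Between the LMPP groups 2 were called lower, beside 1.47% and 0.881%. In each CLP group against CD127+ LMPPs 1 was called lower, beside 2.06% and 0.635% for Ly6D- CLPs and 4.03% and 1.28% for Ly6D+ CLPs. Gata2, a stem and mast cell factor, differed between Ly6D+ CLPs and CD127- LMPPs by -1.35 (SE 0.19, adjusted p = 0.00154), and Id3, an inhibitor of E proteins, by -1.25 (SE 0.18, adjusted p = 0.00187). The Gata2 call was lost with the median (-1.12, adjusted p = 0.0817) and the brightest probe set (-0.67, adjusted p = 0.110). Between the CLP groups, where 0.0993% of all genes were called, 0 of the 13 were called. Over all lists, 79 of the 125 calls of named list genes were lost under at least 1 of the 20 alternatives, 56 of them when an array was left out, and 0 changed sign under any.

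Some markers of other cells moved with the CD127+ LMPP group. In CD127+ against CD127- LMPPs, 4 of 8 neutrophil markers passed as higher and 2, Mpo and Prtn3, as lower. Beside them, 0.881% of all genes were called higher and 1.47% in either direction. Mpo averaged 9.54 in CD127+ and 10.86 in CD127- LMPPs, and Prtn3 averaged 7.43 and 8.49. Both calls were lost with the brightest probe set (adjusted p = 0.0833 and 0.0839). With it the higher calls of Ngp (0.0689), S100a8 (0.109) and S100a9 (0.0776) were lost as well. The neutrophil list mean ranged from 8.0 to 8.5 in CD127+ LMPPs, 6.18 to 7.31 in CD127- LMPPs, 6.09 to 6.16 in Ly6D- CLPs and 5.73 to 6.13 in Ly6D+ CLPs. Camp, a granule gene, was 3.63 log2 units higher in CD127+ than in CD127- LMPPs (adjusted p = 0.000650). Of 5 erythroid markers, 2, Car1 and Rhag, were higher in that comparison, beside the same 0.881% of all genes. The Rhag call was lost with the median (adjusted p = 0.0855) and the brightest probe set (0.449), and without any 1 of 4 arrays. The erythroid list mean ranged from 5.92 to 6.75 in CD127+ LMPPs, 5.13 to 5.19 in CD127- LMPPs, 4.86 to 4.97 in Ly6D- CLPs and 4.52 to 4.66 in Ly6D+ CLPs. Their part in the member differences that involve CD127+ LMPPs was not tested. Between the CLP groups, where Ebf1 was called, 0 markers of either list were called, but 0.0993% of all genes were called there. So few calls cannot decide whether these markers differed.

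The genes whose values ran most like a member's were found by Pearson's r over the 10 arrays among 1004 genes with group means spanning at least 1 log2 unit. The points share 4 groups, so r mostly reflects the order of group means and is a description. The closest to Ebf1 were Rag1 (r = 0.990), Gimap4 (0.970) and Sla2 (0.968). The closest to Spib were Fam40b (0.976), Siglech (0.963) and Fryl (0.960), and the closest to Irf4 were Flrt3 (0.982), Adamts6 (0.981) and Klf4 (0.979). Gfra2 was the closest to both Pax5 (0.921) and Pou2af1 (0.941), followed for Pou2af1 by Vpreb2 (0.936) and Cd79a (0.917) and for Pax5 by Cecr2 (0.909) and Myl4 (0.871). For Foxo1 they were Atp1b1 (0.958), Klf4 (0.938) and Tgfb3 (0.932), and for Lef1 Klf4 (0.912), Fryl (0.897) and Ifna2 (0.897).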

How the data were processed

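One deposited table holds 269751 probe sets for 10 arrays. The deposited values run from 0.204 to 14.8 and were taken as log2 signals because of that span; no source used here states the base. Affymetrix Power Tools is named per the submitters' processing notes; summary method, normalization and build were not given in the sources. Array number and signal over background limit the precision. A gene's value is the mean of its probe sets with 1 symbol (233753 probe sets, 23152 genes, median 8 each); probe sets with several symbols (5106) or none (30892) were left out. Groups came from the array titles. limma 3.58.1 in R 4.3.3 fitted 4 group means to all arrays with empirical Bayes moderation and no other covariate, was tested on simulated data, and p-values were Benjamini-Hochberg adjusted over all genes, threshold 0.05. Members and lists were chosen with earlier results of these data known. All members were named, and from each list up to 4 genes past the threshold with the largest difference, or else the 1 with the largest; per member that varied, the 3 genes most like it, leaving out predicted genes, small RNAs and receptor segments. Some genes of the lists were not analysed here. Alternatives changed normalization, gene summary, dim-gene filter, variance model, arrays fitted, array weights, replicate block and each array in turn.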

Additional observations from a re-analysis of the deposited data

How the results depend on the processing

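Of the 20 member differences called, 6 kept their call under all 20 alternatives, 14 lost it under at least 1 and 9 lost it without at least 1 array. The 1 called difference that changed sign was Pax5 in Ly6D+ CLPs against CD127+ LMPPs, -0.48 with the brightest probe set. Of 40 uncalled differences, 8 were called under at least 1 alternative. The causes were not tested. Quantile normalization and median centring left all 6 counts of called members as they were.

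Members called between the LMPP groups (1) came to 2 with trend and robust settings. Between Ly6D- CLPs and CD127+ LMPPs (1), the count was 0 with array weights, the median or brightest probe set, probe sets above the limit or the compared arrays alone, and 2 with trend and robust settings or genes above the limit. Between Ly6D+ CLPs and CD127+ LMPPs (6) it was 3 with the median probe set. Between the CLP groups (1) it was 0 with the compared arrays alone, 3 with genes above the limit and 2 with trend and robust settings. Between Ly6D- CLPs and CD127- LMPPs (3) it was 5 with trend and robust settings. Between Ly6D+ CLPs and CD127- LMPPs (8) it was 4 with the brightest and 5 with the median probe set. Members varying among the groups (7) came to 4 with the brightest probe set.

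With each array left out in turn, the counts ranged, in the same order, over 1 to 1, 0 to 1, 2 to 6, 1 to 2, 3 to 4, 4 to 8 and 4 to 7. Calls over all genes ranged between 88 and 581 (341 as reported), 22 and 1398 (476), 194 and 1959 (933), 1 and 78 (23), 664 and 2551 (1643), and 1001 and 3451 (2517) over all alternatives.

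Deviations from the group means correlated weakly between same-numbered arrays of different groups (13 pairs, r from -0.04 to 0.13, 1 over 0.1). Between arrays with different numbers r ran from -0.14 to 0.14 (24 pairs, 1 over 0.1). Within each CLP group the deviations of the arrays mirror each other, so these pairs are not independent. The values therefore cannot decide whether the numbers pair the samples. With the replicate number as a block, the count between Ly6D- CLPs and CD127+ LMPPs was 0 (Spib, adjusted p = 0.0639) and that between Ly6D+ CLPs and CD127+ LMPPs was 4, without Lef1 (0.0808) and Pou2af1 (0.0503).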
